A study of Mus musculus with 18 samples.

Results

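The members were the guides of a pooled CRISPR library whose target gene belongs to one of 9 families of cell adhesion and guidance genes: integrins, Cdh cadherins, protocadherins, claudins, Icam genes, semaphorins, plexins, Eph receptors and ephrins. The rule that picked them used gene symbols and no measured value, though it was chosen with earlier results of these data known. It took in 576 of the 18146 guides in the table, 4 guides for each of 144 genes. The library was carried by MC38, a mouse colon carcinoma line, and was read by sequencing after the pooled cells had been implanted into C57BL/6 wild-type mice or into B6-Rag1-KO mutant mice. Both screen samples carry the label crispr library as their treatment. The 2 hosts differ in the Rag1 gene, without which mature T and B cells do not form. Each host is represented by 1 library, with 27142741 reads for C57BL/6 and 19114273 for the Rag1 knockout, so no difference between hosts could be tested. The number of animals behind each library, the time in the host and the Cas9 line are not given in the sources used here. The pool before implantation is not among the samples, so an abundance below cannot be set against its starting value. To say whether a targeted gene had mRNA, 3 RNA libraries of cultured control MC38 cells and 5 of control MC38 tumours, both labelled Mbtps1 WT, were read as well.

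Integrins are pairs of an alpha and a beta chain that tie a cell to matrix or, on leukocytes, to other cells through ligands such as the Icam proteins. Cadherins hold like cells together at adherens junctions, protocadherins are related proteins best known from neurons, and claudins seal tight junctions. Semaphorins act on plexins, and ephrins on Eph receptors, to repel or steer cells and axons. A guide directs Cas9 to cut its gene, and the abundance of a guide stands for the abundance of cells that carry the guide. Whether the gene was cut in those cells was not measured here. A guide rarer in the host with T and B cells than in the host without them would mark cells that fared worse with those lymphocytes present, and the comparison of hosts asks for which genes this holds.

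As a set, the adhesion and guidance guides lay close to the rest of the library. Abundance is given as counts scaled to the library total (CPM), and the host ratio as the log2 of C57BL/6 over Rag1-knockout CPM after 1 CPM was added to both. A positive value means more in C57BL/6. The median log2 ratio over the 575 member guides that had 20 or more reads when both libraries were added was 0.08, against 0.12 over all 18108 guides past that limit and 0.08 over 24 non-targeting control guides. The SD over guides was 0.87 for members, 0.93 for all guides and 0.98 for the controls. The remaining member guide, 1 of Pcdhb10 with 8 and 1 reads, was too rare for a ratio (0.209% of all guides were).

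More than 2-fold ratios of single guides were found at about the background rate. Of the member guides, 77 (13.4%) were more than 2-fold higher in C57BL/6, beside 14.9% of all guides, and 56 (9.74%) more than 2-fold lower, beside 11.1%. Centred at the median of all guides, the split was 58 above and 74 below, beside 11.9% and 13.5% of all guides. No guide was past 2-fold in either direction for 47 of the 144 genes (32.6%, beside 30.1% of all targeted genes), and 11 genes had guides past 2-fold in both directions (7.64%, beside 14.3%).

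Guides of one gene rarely moved as one. The SD between guides of the same member gene was 0.86, nearly the whole spread, and differences between genes took 3.90% of the variance of member guides, against 1.51% over all targeted genes. Of the 143 member genes with 4 ratios, 49 had 2 guides above and 2 below the median of all guides (34.3%, against 36.3% of all genes). Counting error was smaller than this spread. The exact 95% counting interval of the ratio excluded the median of all guides for 495 of 575 member guides (86.1%, beside 86.8% of all guides). Those intervals cover counting error only, since reads without molecular identifiers are not independent molecules, and nothing here measures how far 2 mice of one host would differ. A value for a gene below is therefore a description of these 2 libraries.

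Among families, Icam guides had the highest median (0.33, 16 guides) and protocadherin guides the lowest (-0.01, 203 guides). Integrins followed Icam genes at 0.22, semaphorins stood at 0.16, Cdh cadherins and plexins at 0.11, claudins at 0.08, and Eph receptors and ephrins at 0.07. The SD of single guides within a family ran from 0.74 for Eph receptors to 0.99 for semaphorins, and the differences between family medians were not tested. Taken over the medians of genes, Icam genes were again highest at 0.39, while ephrins were lowest at -0.03 and protocadherins were at 0.07. Eph receptors had 10 of 44 guides more than 2-fold higher and 0 lower, and Icam guides 4 of 16 higher and 0 lower, beside 14.9% higher and 11.1% lower over all guides. Semaphorins had 10 of 56 guides lower and 8 higher, and protocadherins 22 of 203 lower and 20 higher.

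At the level of genes, 5 of 144 had a median more than 2-fold higher in C57BL/6 (3.47%, beside 3.55% of all genes) and 3 a median more than 2-fold lower (2.08%, beside 1.83%). The higher ones were Cldn23, Cdh16, Epha4, Pcdhga11 and Efnb3. The lower ones were Pcdhb4, Sema6d and Cldn20. Efnb3 at 1.03 was the last inside the upper limit and Pcdh11x at 0.96 the first outside, and Cldn20 at -1.04 and Cdh20 at -0.93 bounded the lower limit. Measured from the median of all guides, only Cldn23 of the 5 was more than 2-fold higher, at 1.32, whereas Pcdhb4, Sema6d and Cldn20 all stayed below -1 and Cdh20 joined them at -1.05. With a pseudocount of 5 CPM, 1 gene stayed past 2-fold, Cldn23, and none of the 3 lower ones did. All 4 guides lay above that median for 7 genes (4.86%, beside 6.65% of all genes): Itgb1, Itgbl1, Cdh2, Cdh16, Pcdhga9, Pcdhga11 and Sema4d. All guides lay below it for 11 genes (7.64%, beside 6.31%): Cdh11, Cdh20, Cldn12, Sema3e and 7 clustered protocadherins, Pcdha12, Pcdhb4, Pcdhb5, Pcdhb9, Pcdhga6, Pcdhga12 and Pcdhgb4.

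Among integrins that bind matrix, all 4 guides lay above the median of all guides for Itgb1, the beta chain shared by most of them, which lies on chromosome 8 from 128685654 to 128733200 (GRCm38). Its guides had 176, 1111, 851 and 863 reads in C57BL/6 and 44, 396, 433 and 403 in the Rag1 knockout, which gives log2 ratios of 1.18, 0.95, 0.45 and 0.57. All 4 were below the control median in both hosts, with a median of 56.7% of the control median in C57BL/6 and 28.4% in the Rag1 knockout. The median over all guides was itself below that of the controls. It was 44.6 against 55.7 CPM in C57BL/6 and 40.7 against 73.6 CPM in the Rag1 knockout. The mRNA of Itgb1 stood at 634, 648 and 689 CPM in the control cell libraries, the most counts of any member gene, without correction for length.

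Itgb8, whose protein with an alpha V partner activates latent TGF-beta, was the rarest integrin. It lies on chromosome 12 from 119158022 to 119238802. Its guides had 1023, 216, 197 and 280 reads in C57BL/6 and 357, 232, 21 and 107 in the Rag1 knockout, with log2 ratios of 0.98, -0.55, 1.98 and 0.78, so 1 of 4 went against the others. In both libraries 3 of its 4 guides were under 25% of the control median, a level that 53 of 576 member guides (9.20%) and 11.5% of all guides fell under. The guide with 21 reads had a counting interval of the log2 ratio without pseudocount from 2.07 to 3.45.

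Itga5, the alpha chain of the fibronectin receptor, had the lowest integrin median at -0.79. Its guides had 1600, 2046, 121 and 700 reads in C57BL/6 and 1736, 5013, 184 and 449 in the Rag1 knockout, with log2 ratios of -0.62, -1.79, -0.96 and 0.13. Thus 3 of the 4 Itga5 guides lay below the median of all guides, whereas all 4 guides of Itgb1, its obligate partner, lay above it. Itga1, a collagen receptor chain, followed at -0.55 with guides from -1.19 to 0.55. Among laminin receptor chains, Itga7 was at 0.93, Itga6 at -0.22 and Itga3 at -0.51. Itga7 had 1 guide of 4 on the other side, at -0.83. Itgb5 stood at -0.51 with 2 guides under 25% of the control median, and Itgb3, the vitronectin receptor and platelet beta chain, at 0.18 with guides within -0.09 to 0.57. The highest guide of all members was 1 of Itga9, SMprotein_07445, with 5934 reads in C57BL/6 and 717 in the Rag1 knockout (2.51, counting interval 2.43 to 2.66), while the other Itga9 guides were at 0.62, 0.03 and 0.63. Itgbl1, which the naming rule takes in, encodes an integrin beta-like protein and no receptor chain. Its 4 guides ran from 0.20 to 0.91.

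Leukocyte integrins gave a median of 0.26 over 24 guides, with 3 more than 2-fold higher and 1 lower (beside 14.9% and 11.1% of all guides). Itgal and Itgb2, the chains of LFA-1, were at -0.26 and -0.25, and the guides of Itgb2 ran from -1.56 to 0.88. Itgam, a myeloid chain, was at 0.84, Itgax at 0.53, Itgae, the chain of resident lymphocytes in epithelia, at 0.28 and Itgb7 at 0.13. In cultured MC38 cells Itgal, Itgam, Itgax and Itgae were listed at 0 in each of the 3 RNA libraries, while Itgb2 had 17.8 ± 3.98 CPM (SD, n = 3). Icam1, the ligand of LFA-1, had guides at -0.43, 1.25, 0.35 and 0.32, Icam5 had the highest median of its family at 0.58 and Icam4 the lowest at -0.45, where 2 of 4 guides were under 25% of the control median.

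Among cadherins, Cdh16, the kidney cadherin, had the highest median at 1.08. Its guides had 1280, 2477, 1934 and 627 reads in C57BL/6 and 646, 575, 349 and 285 in the Rag1 knockout, with log2 ratios of 0.47, 1.57, 1.91 and 0.60. The gene lies on chromosome 8 from 104601911 to 104624396 and is not listed in the RNA table. Cdh2, which encodes N-cadherin, followed at 0.91 with guides at 0.43, 1.43, 1.17 and 0.65, and it had mRNA in the cells, at 40.5, 40.1 and 44.5 CPM. Cdh1, the epithelial E-cadherin, had 2 guides on each side of the median of all guides, at -0.11, 0.93, -0.81 and 0.61, and was listed at 0 in the cultured cells. Cdh5, the endothelial cadherin, had a median of 0.32 with guides from -0.90 to 1.14.

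Cdh20 was the lowest cadherin at -0.93, with 445, 1822, 593 and 613 reads in C57BL/6 and 630, 1180, 793 and 990 in the Rag1 knockout. The second of those guides, at 0.12, lay at the median of all guides and the others were near or below -0.9. Cdh8 was next at -0.37, from -0.88 to 0.71. Type I cadherins as a class had a median of 0.47 with 6 of 20 guides more than 2-fold higher and 0 lower, and type II cadherins 0.04 with 5 of 40 higher and 5 lower (beside 14.9% and 11.1% of all guides). One guide of Cdh4, a type I cadherin, had 304 reads in C57BL/6 against 23 (2.47), but another of its guides was at -0.36.

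Claudins included Cldn23, the gene with the highest median of all members, and Cldn20, the third lowest. Cldn23, on chromosome 8 from 35824712 to 35826559, had guides with 1768, 8346, 581 and 1188 reads in C57BL/6 and 236, 1024, 601 and 558 in the Rag1 knockout. Their log2 ratios were 2.31, 2.50, -0.53 and 0.57, so its median of 1.44 rests on 2 guides, and the third pointed the other way. The mRNA of Cldn23 was 0.41 CPM on average in the control cells and was listed at 0 in the control tumours. Cldn20, on chromosome 17 from 3532554 to 3533213, had 171, 1865, 1488 and 1378 reads in C57BL/6 and 370, 3203, 1853 and 832 in the Rag1 knockout, with log2 ratios of -1.48, -1.27, -0.81 and 0.22. Summing the CPM of the 4 Cldn20 guides gave -0.85, within 2-fold.

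Cldn10 stood at 0.61 and Cldn19 at -0.40. Cldn4, a claudin of gut and other epithelia, had guides at 1.45, -1.18, -0.54 and 0.57. Cldn12 had the most counts of the claudins in the cultured cells, at 98.2, 104 and 103 CPM. Its guides were at -0.15, -1.32, -0.36 and -0.39, all below the median of all guides. Claudin guides were the most abundant family in C57BL/6, with a median of 72.0 CPM against 46.8 over all members. In the Rag1 knockout plexins at 73.0 CPM and ephrins at 59.6 CPM stood above claudins at 54.0 CPM.

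Semaphorins that are secreted (class 3) had a median of 0.03 over 28 guides, and membrane-bound ones 0.22 over 28. Sema6d, a membrane-bound semaphorin on chromosome 2 from 124089969 to 124667770, had guides with 441, 150, 1850 and 2546 reads in C57BL/6 and 952, 196, 3417 and 1478 in the Rag1 knockout. Its log2 ratios were -1.56, -0.79, -1.38 and 0.28, and summing the guides gave -0.78. Sema6c was next at -0.70, with guides from -1.44 to 0.48. The highest medians were those of Sema3a at 0.74 and Sema4f at 0.70, and each had 1 guide at -0.47 or -1.62. Sema3a, the collapse factor of growth cones, had mRNA in the cells at 132, 128 and 166 CPM. Sema4d, a semaphorin of lymphocytes that binds B plexins, had guides at 0.50, 0.20, 0.79 and 0.26, all above the median of all guides, and it was listed at 0 in the cultured cells. Sema3c and Sema3f held the extreme guides of the family, at -2.39 and 2.17.

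The receptors of semaphorins showed no gene past 2-fold. Plxna2 was highest at 0.52 and Plxnb2 lowest at -0.26. Plxnb2, with 396, 403 and 356 CPM of mRNA in the cultured cells, had guides at -1.19, 0.70, -0.68 and 0.16. Plxnb1, the receptor of Sema4d, had 1 guide, SMprotein_12924, with 1450 reads in C57BL/6 against 5783 in the Rag1 knockout (-2.48, counting interval -2.59 to -2.42), while its other guides were at -0.55, 0.08 and 0.18.

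Eph receptors were led by Epha4, a receptor for both classes of ephrin, on chromosome 1 from 77367185 to 77515088. Its guides had 282, 2214, 1047 and 2162 reads in C57BL/6 and 61, 1606, 354 and 702 in the Rag1 knockout, with log2 ratios of 1.44, -0.04, 1.02 and 1.10. The most abundant guide was the one that did not differ, and summing the guides lowered the gene's value from 1.06 to 0.56. Epha3 was at 0.67. Epha2, the EphA receptor of many epithelial tumours, had mRNA at 138, 163 and 163 CPM in the cultured cells and guides at -0.37, -0.17, 1.95 and 1.34, on both sides of the median of all guides. Ephb4 had 1 guide at 1.32 and 1 at -0.67, with the other two near 0. Epha7 and Epha8 had the lowest medians, both -0.16.

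Ephrin guides are given by class. The 8 guides of the transmembrane ephrins Efnb1 and Efnb3 had a median of 0.89, with 4 more than 2-fold higher and 0 lower, and the 12 guides of the GPI-anchored Efna1, Efna3 and Efna4 had -0.03, with 0 higher and 3 lower (beside 14.9% higher and 11.1% lower over all guides). Efnb3 held 3 of those 4 guides, and Efnb1 had a median of 0.40 with guides at 0.78, 1.42, -0.48 and 0.03. Efnb3, on chromosome 11 from 69554092 to 69560205, had 661, 1381, 3455 and 198 reads in C57BL/6 and 135, 474, 1156 and 171 in the Rag1 knockout, with log2 ratios of 1.65, 1.01, 1.06 and -0.26. Efna4 was the lowest ephrin at -0.40, with guides at -1.17, -1.44, 0.82 and 0.38, and Efna1 was at -0.03. The classes hold 2 and 3 genes, and the range of the guides of the first, from -0.48 to 1.65, overlapped that of the other, from -1.44 to 0.92.

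Protocadherins made up 51 of the 144 genes, 46 of them from the alpha, beta and gamma clusters, which lie side by side on chromosome 18. The alpha cluster guides had a median of -0.16, the beta cluster -0.01 and the gamma cluster 0.01. The order changed when the medians of genes were taken, to 0.09 for the alpha, -0.04 for the beta and 0.09 for the gamma cluster. Over the 3 clusters 183 guides had a ratio. Of these, 15 were more than 2-fold higher (8.20%, beside 14.9% of all guides) and 20 lower (10.9%, beside 11.1%). Of the 8 member guides with the lowest log2 ratios among those with at least 100 reads, 6 were directed at clustered protocadherins. These clusters supplied 184 of the 576 member guides. The lowest of all was 1 of Pcdhb9, SMprotein_12385, with 475 reads in C57BL/6 and 2327 in the Rag1 knockout (-2.73, counting interval -2.94 to -2.66). The other Pcdhb9 guides were at 0.06, -0.44 and 0.05. Single guides of Pcdhga3, Pcdhb18, Pcdha10, Pcdhb13 and Pcdhb5 were at -2.44, -2.43, -2.42, -2.38 and -2.22. At the other end, single guides of Pcdha5 and Pcdhb11 were at 2.05 and 2.01.

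Pcdhb4 had the lowest median of any member, -1.26, from guides at -0.39, -1.41, -1.27 and -1.25. Its reads were 178, 62, 934 and 1723 in C57BL/6 and 170, 148, 1608 and 2913 in the Rag1 knockout. Pcdhga8 followed in the family at -0.76. Pcdhga11 had the highest clustered median, 1.04, from guides at 1.11, 0.89, 0.97 and 1.71, the most even of the genes past 2-fold. In the cultured cells Pcdhb4 averaged 0.14 CPM and Pcdhga11 0.39 CPM. Pcdhgc3, the gamma gene with the most counts in the cells at 311, 339 and 286 CPM, had a median of -0.20. The non-clustered Pcdh11x was at 0.96 with guides spread from -1.79 to 2.40. Clustered protocadherins are close in sequence, and the table gives no guide sequences, so whether a guide matches more than one of them was not tested.

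Ratios were close to each other whether the target was listed at 1 CPM or more or under it. A listed 0 was counted as under 1 CPM, though it may not stand for absent mRNA. Of the 105 member genes listed in the RNA table, 53 had at least 1 CPM on average in the control cells (50.5%, beside 51.6% of all targeted genes listed) and 75 in the control tumours (71.4%, beside 75.3%). A further 39 members are not listed there. The median log2 ratio was 0.06 for the 212 guides against the 53 genes with mRNA in the cells, 0.05 for the 108 guides against 27 genes under 1 CPM in both cells and tumours, and 0.17 for the 100 guides against 25 genes with at least 1 CPM in tumours alone. In the same order 28 (13.2%), 15 (13.9%) and 12 guides were more than 2-fold higher, and 21 (9.91%), 9 (8.33%) and 8 lower. Over all targeted genes listed, guides against genes with mRNA in the cells were more than 2-fold higher in 15.7% and lower in 10.8%, and those under 1 CPM in 13.2% and 10.3%. Guides under 25% of the control median in both hosts made up 18 of the 212 (beside 11.7% of all guides against genes with mRNA in the cells), and 13 of the 108 and 6 of the 100 (beside 7.99% of all guides against genes under 1 CPM there).

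The tumour libraries hold host cells, so members listed at 0 in cells but present in tumours were read from a mixture, in which fewer cells and less RNA per cell cannot be told apart. Endothelial Cdh5 went from 0.69 CPM in cells to 37.6 ± 6.03 in tumours (SD, n = 5), and Itgam was listed at 0 in cells and stood at 53.6 ± 11.5 in tumours. Of the 5 leukocyte markers, Ptprc, Cd3e, Cd8a and Itgam were listed at 0 in the 3 cell libraries. Cd68, the remaining one, was at 1.12 to 2.18 CPM there. In tumours the 5 markers summed to 183 to 255 CPM, and Cd68 alone was at 92.0 to 103. Of the epithelial markers, Epcam and Cdh1 were listed at 0 in the cells, and Krt18 and Krt19 are not listed. Krt8 was at 1.26 to 3.76 CPM in the cells but was listed at 0 in the 5 tumour libraries. Whether a listed 0 stands for absent mRNA was not tested. Among the 5 fibroblast markers, Pdgfra was at 184 to 225 CPM and Dcn at 119 to 197 in the same cells, while Pdgfrb was at 3.02 to 5.88, Col1a2 at 0.46 to 0.91 and Col1a1 at 0 to 0.49. The RNA libraries had 14240353 to 15155599 counts in cells and 19630410 to 28316572 in tumours. The labels do not say that RNA replicates were separate cultures or animals, so their SDs may be technical.

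Adhesion and guidance genes outside the 9 families had a like median and a like share of higher guides, but a smaller share of lower ones. A list of 77 symbols held some genes under both an old and a new symbol. Of these symbols, 46 had guides, 184 in all, with a median log2 ratio of 0.10. Of these guides 27 were more than 2-fold higher (14.7%, beside 14.9% of all guides) and 12 lower (6.52%, beside 11.1%). Ocln, the tight junction protein occludin, was the gene of that list past 2-fold, at 1.03 with guides from -1.02 to 2.44. The neuropilins, co-receptors of class 3 semaphorins, were at -0.46 for Nrp1 and -0.45 for Nrp2, and the hyaluronan receptor Cd44 was at 0.61 with all guides between 0.51 and 0.92. Ocln, the neuropilins and Cd44 were named after their values were seen.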

How the data were processed

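The guide table and the gene table hold whole-number read counts, deposited without normalisation by the authors, with 0 value columns that lacked a sample. For the RNA libraries, STAR 2.7.1a and HTSeq 0.13.5 stand in the submitters' processing notes beside the human build hg38, with no role given, while the gene symbols are those of mouse. The counting tool for guides was not given in the sources used here, and guide sequences and positions were not used here.

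CPM used library totals. Ratios used a pseudocount of 1 CPM and a floor of 20 reads, both libraries added, and genes took the median over at least 3 guides. Counting intervals are exact Clopper-Pearson intervals (95%, scipy 1.17.1), without pseudocount. Python 3.11.15, numpy 2.4.6 and pandas 2.3.3 were used. Ratios and intervals were tested on simulated data that held counting error and planted changes only, without the wider spread of guides seen here. With 1 library per host, no test was made. Gene positions are from GENCODE M21 (GRCm38), in which 143 of 144 symbols matched once.

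Named were the 2 highest and 2 lowest genes of each family (1 each in families under 8 genes), the 8 highest and 8 lowest guides with at least 100 reads, 23 genes always and the 8 members with most counts in cells. Itgav, Itga4, Cldn7, Plxna1 and Efnb2 from the 23 had no guides under these symbols in the counts used here, so they are not analysed. Other genes were named after their values were seen. Members and lists were chosen with earlier results of these data known.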

Additional observations from a re-analysis of the deposited data

Results flagged for a closer look

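Of the named members with at least 1 CPM in a control tumour, 38 were checked for a library apart from the other 4, and 4 were found, where chance flags about 1 in 20 groups. All are mRNA levels below the rest. Ephb4 was 59.3 CPM in control tumour replicate 2 against 77.9 to 83.6 in the others, and Itgb3 was 5.27 CPM in the same library against 9.72 to 11.1. Efnb3 was 3.06 CPM in control tumour replicate 4 against 3.48 to 3.62. Pcdhb18 was 1.15 CPM in control tumour replicate 1 against 1.82 to 1.94.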

How the results depend on the processing

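No paired analysis was possible because the results come from no test. With the median of all guides at 0, the median of all member guides was -0.0427 and that of protocadherins -0.13, and with the median of control guides at 0 the first was -0.00428. Either centring left 1 gene with a median more than 2-fold higher (against 5), as did a pseudocount of 5 CPM, which left 0 genes more than 2-fold lower (against 3). Summed CPM of a gene's guides kept 4 of the 5 and 1 of the 3, but other genes entered on both sides. The totals were then 6 genes higher and 3 lower. Summing also changed the sign of the value of 25 of the 144 genes, the most of any alternative run on genes. Without centring, at a ratio of 1, 5 genes had all guides lower (against 11), an alternative chosen after seeing the data. At a threshold of 5 CPM, 35 member genes had mRNA in control cells (against 53), and leaving out a library each gave 52 to 54. The shifts under centring follow from the subtraction, and for the others the cause was not tested. Counts of guides past 2-fold stayed within 1.5 times under all 6 alternatives run on them. The depth of a guide limits its own ratio, but 2 libraries without replicates are the limit for every comparison.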
